A study of Mus musculus with 12 samples.

Results

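The prolactin family genes Prl7b1, Prl2c5, Prl2c1 and Prl2a1 were followed across 12 microarrays of cultured FVB/N mouse keratinocytes, the cells that build the epidermis, taken as primary cultures. These 4 genes were among 19938 genes that had a probe group (a transcript cluster) annotated with their symbol alone, and among the 15868 genes that also passed a filter on low values. They were selected on their expression differences between the groups in earlier results of the same arrays. Their own values are therefore given as a description, with standard deviations and standard errors but with no test, and each had 1 cluster. The platform was the Affymetrix Mouse Gene 1.0 ST array, in a study of MET and EGFR signalling in mouse epidermis and its part in squamous carcinogenesis.

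The 12 arrays fell into 4 groups of 3. The first group was MT-HGF cells after a mock transduction and treatment with AG1478, an inhibitor of the EGFR tyrosine kinase. They were kept in 8% serum and the treatment ran for 24 h. The second group was untreated MT-HGF cells, from mice transgenic for HGF (hepatocyte growth factor), which activates the receptor MET. The third was wild-type cells transduced with the viral oncogene v-rasHa, an active version of Hras (RAS cells), and the fourth was wild-type control cells. The labels of these last 3 groups share a note on a transduction of 3 days, and no source used here says whether the untreated MT-HGF and wild-type cells went through a mock transduction. No vehicle-treated array was used here, so AG1478 cannot be told apart from the serum, mock transduction and RNA extraction that the labels describe in other words for that group. The sources used here do not say in which cells the transgene's promoter acts or whether the arrays of a group came from separate mice or cultures, so the spread between arrays may be partly technical.

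The deposited values are log2 expression values, so a difference of 1 is a doubling, and array medians lay between 6.77 and 6.84. Probe groups differ in how brightly they hybridise, so levels are compared between groups for the same gene and not between genes. An array's background was taken as the 95th percentile of its chemosensory receptor genes, which are not known as keratinocyte products, and lay between 6.82 and 7.22. The transgene check on Hgf gave 10.74 ± 0.073 in AG1478-treated MT-HGF cells, 10.68 ± 0.079 in MT-HGF cells, 5.16 ± 0.24 in RAS cells and 4.91 ± 0.060 in wild-type cells (mean ± SD, n = 3 arrays each). Hgf was at least 13.4-fold higher in MT-HGF than in wild-type cells (limma adjusted p = 3.45e-16). The basal keratin Krt5 averaged 13.48, 13.38, 13.47 and 13.48 in the AG1478-treated MT-HGF, MT-HGF, RAS and wild-type cells, and Krt14 averaged 12.99, 12.88, 12.97 and 13.01, both above background on every array.

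The prolactin family is a group of secreted hormones and cytokines related to pituitary prolactin. In the mouse the family has expanded into a large gene cluster on chromosome 13, and most of its members are made by trophoblast cells of the placenta. Prolactin itself binds the prolactin receptor, which signals through the kinase JAK2 and the transcription factor STAT5, while many of the placental members are not known to bind that receptor. Prl2c5 belongs to the proliferins (Prl2c subfamily), secreted glycoproteins known from growth-stimulated mouse fibroblasts and from placental giant cells, where they are linked to blood vessel growth. Prl2a1 and Prl7b1 were named prolactin-like proteins M and N, and Prl2c1 lies in the same subfamily as the proliferins by its name. The function of Prl7b1, Prl2a1 and Prl2c1 in skin is not established.

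Prl2c5 was above background on every array and its relative Prl7d1 on no array. Their levels are not compared with each other, since probe groups differ in how brightly they hybridise. The promoters of these genes are shown because they are nearly the same in sequence. Each is a RefSeq window on GRCm38.p6 of 250 bases before and 50 after a gene start, read 5′ to 3′ on the gene's strand. Prl2c5 stands at chr13:13182466-13182765 on the plus strand and Prl7d1, the proliferin-related gene, at chr13:27716688-27716987 on the minus strand. Capitals mark the 18 bases of each window that differ from the other or have no partner in it, and 282 of 300 bases were identical.
Prl2c5: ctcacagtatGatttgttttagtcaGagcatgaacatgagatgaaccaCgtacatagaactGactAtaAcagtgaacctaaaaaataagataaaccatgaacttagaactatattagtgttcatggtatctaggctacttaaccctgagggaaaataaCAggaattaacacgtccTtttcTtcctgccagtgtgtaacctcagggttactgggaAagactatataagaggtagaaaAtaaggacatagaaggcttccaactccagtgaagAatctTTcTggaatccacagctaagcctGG
Prl7d1: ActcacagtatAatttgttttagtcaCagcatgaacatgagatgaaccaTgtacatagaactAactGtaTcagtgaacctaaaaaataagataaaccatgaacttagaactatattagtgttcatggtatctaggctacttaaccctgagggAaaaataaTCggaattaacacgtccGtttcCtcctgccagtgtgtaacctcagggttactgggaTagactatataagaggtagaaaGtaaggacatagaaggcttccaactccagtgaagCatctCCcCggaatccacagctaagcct
The Prl2c5 window shared 287 bases with that of Prl2c3, a proliferin gene near it on the chromosome. After Prl2c3 and Prl7d1, the other family windows shared between 179 (Prl7a2) and 198 (Prl4a1) bases with it. Of the 4 genes, 2 (Prl2c5 and Prl2a1) had a window in the sequence table. The Prl2a1 window was most like that of Prl7a2, with 206 identical bases, and least like that of Prl8a6, with 179.

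Prl7b1 had the widest range of the 4 genes across the groups. It was at 5.05, 5.11 and 5.29 on the AG1478-treated MT-HGF arrays, at 7.46, 7.52 and 7.73 on the MT-HGF arrays, at 9.0, 8.50 and 9.10 on the RAS arrays, and at 4.65, 4.58 and 4.47 on the wild-type arrays. No 2 groups overlapped, and the order from high to low was RAS, MT-HGF, AG1478-treated MT-HGF and wild type. All 6 RAS and MT-HGF arrays were above background, and all 6 AG1478-treated and wild-type arrays were below it. The gene passed the filter through those same RAS and MT-HGF arrays alone.

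Because wild-type and AG1478-treated cells had no measurable Prl7b1, most of its differences are bounds. RAS cells averaged 8.87 ± 0.32 and wild-type cells 4.57 ± 0.088 (SD, n = 3 each), a difference of 4.30 ± 0.12 (SE) log2 units, which amounts to at least 3.84-fold over the background. In MT-HGF cells, at 7.57 ± 0.14, the gene was 3.00 ± 0.12 log2 units above wild type, or at least 1.56-fold. AG1478-treated MT-HGF cells averaged 5.15 ± 0.12, at least 1.35-fold lower than in MT-HGF cells (-2.42 ± 0.12 log2 units). The AG1478-treated cells were also at least 3.32-fold lower than RAS cells. No fold is given for AG1478-treated against wild-type cells, since neither was above background, although the arrays did not overlap. MT-HGF and RAS cells were both above background, and Prl7b1 was 2.46-fold lower in MT-HGF than in RAS cells (-1.30 ± 0.12 log2 units). Counting only genes that moved in the same direction, 0 of the 15868 genes lay further below RAS cells in AG1478-treated MT-HGF cells than Prl7b1. Likewise, 1 gene lay further below untreated MT-HGF cells with AG1478, and 4 lay further above wild type in RAS cells. Genes that moved the other way were not counted, such as Hgf at 5.58 log2 units in AG1478-treated MT-HGF minus RAS cells. Such ranks have no settled order for a gene that reaches background.

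**Figure D1:**
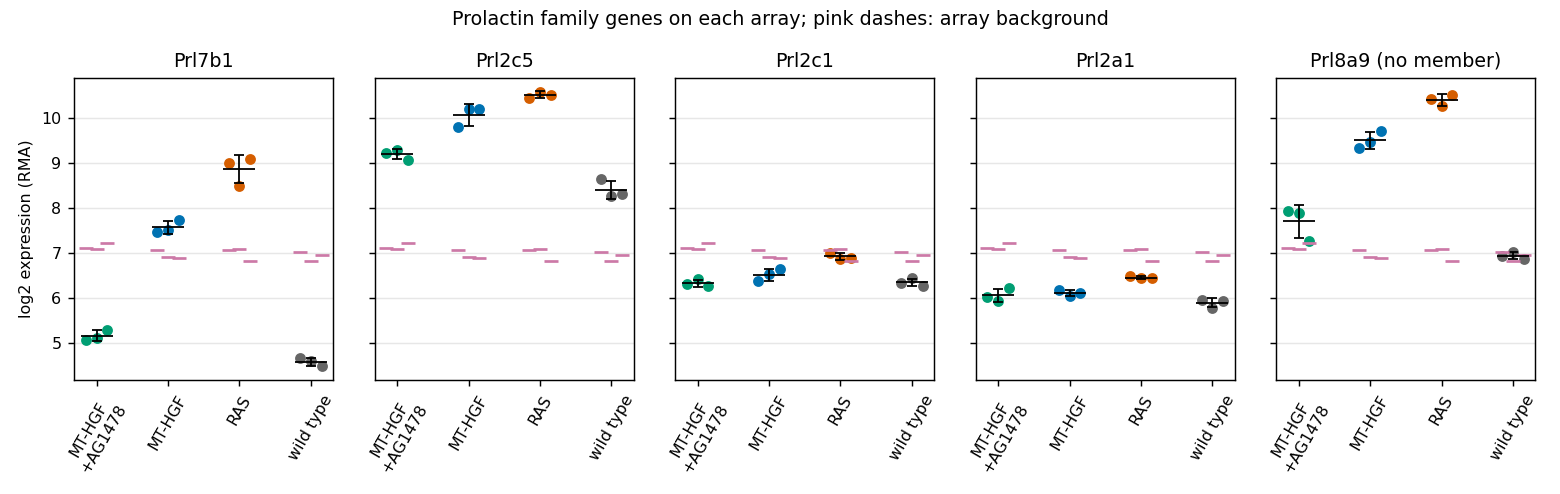
Deposited log2 expression (y axis) of Prl7b1, Prl2c5, Prl2c1, Prl2a1 and the related Prl8a9 on each of the 12 arrays by group (x axis); points are arrays, horizontal bars are group means with SD (n = 3) and dashes are the background of each array. Prl7b1 crosses the background between groups, Prl2c5 lies above it on every array, and Prl2c1 and Prl2a1 stay near or below it.

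Prl2c5, a proliferin, was above background on all 12 arrays. Its values were 9.23, 9.29 and 9.08 on the AG1478-treated MT-HGF arrays, 9.80, 10.21 and 10.22 on the MT-HGF arrays, 10.45, 10.59 and 10.53 on the RAS arrays, and 8.65, 8.28 and 8.31 on the wild-type arrays. The order of the groups was that of Prl7b1 and no 2 groups overlapped. MT-HGF replicate 1 lay below the other two arrays of its group. RAS cells averaged 10.53 ± 0.073 and wild-type cells 8.41 ± 0.20, a 4.32-fold higher level in RAS cells (2.11 ± 0.11 log2 units, SE). MT-HGF cells averaged 10.08 ± 0.24 and were 3.18-fold above wild type, but 1.36-fold below RAS cells. AG1478-treated MT-HGF cells averaged 9.20 ± 0.11, which was 1.84-fold below untreated MT-HGF cells and 1.72-fold above wild type. Unlike Prl7b1, the gene thus stayed measurable in the AG1478-treated cells, at an intermediate level 2.51-fold below RAS cells. Among all genes tested, 70 lay further below untreated MT-HGF cells with AG1478, and 104 lay further above wild type in RAS cells. Genes that moved the other way are again not in these counts.

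The proliferins are close in sequence and may share probes, so a value cannot be assigned to 1 of them with certainty. A cluster annotated with 3 other genes of the Prl2c subfamily, kept out of the gene tests because it names several genes, had the same order of groups. It was at 9.08, 8.86 and 8.60 on the AG1478-treated MT-HGF arrays, 9.44, 9.91 and 10.01 on the MT-HGF arrays, 10.05, 10.45 and 10.25 on the RAS arrays, and 8.05, 7.81 and 7.81 on the wild-type arrays. Its differences were 2.36 log2 units for RAS and 1.90 for MT-HGF cells against wild type, and -0.94 for AG1478-treated against untreated MT-HGF cells. MT-HGF replicate 1 was the lowest array of its group for this cluster and for Prl2c5 alike. How much of this cluster's signal is the RNA of Prl2c5 was not tested.

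Prl2c1 and Prl2a1 lie side by side on chromosome 13 and were at or below background nearly throughout. Prl2c1 was at 6.30, 6.41 and 6.25 on the AG1478-treated MT-HGF arrays, 6.38, 6.52 and 6.64 on the MT-HGF arrays, 6.99, 6.86 and 6.89 on the RAS arrays, and 6.32, 6.43 and 6.26 on the wild-type arrays. The 3 RAS arrays were the highest, and 1 of them was above its background, while the other 3 groups overlapped one another. The fitted difference of RAS and wild-type cells was 0.58 ± 0.078 log2 units (SE), and no fold is given because RAS cells did not exceed the mean wild-type background.

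Prl2a1 was at 6.02, 5.93 and 6.22 on the AG1478-treated MT-HGF arrays, 6.17, 6.03 and 6.10 on the MT-HGF arrays, 6.48, 6.43 and 6.44 on the RAS arrays, and 5.95, 5.78 and 5.92 on the wild-type arrays. The RAS arrays were again the highest, but no array reached its background, so no difference is claimed for this gene. With the lower background that all 1260 chemosensory clusters give, which lay between 6.09 and 6.34, the 3 RAS arrays and 1 MT-HGF array of Prl2a1 would count as above it. Under that background Prl2c1 was above it on all arrays of the RAS, MT-HGF and wild-type groups and on 2 AG1478-treated arrays.

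Counted over the 4 genes, RAS arrays were all higher than wild-type arrays for 4 genes, against 16.6% of all genes tested. MT-HGF arrays were all higher than wild-type arrays for 3 genes (20.8% of all genes) and all lower than RAS arrays for 4 (19.6%). AG1478-treated arrays were all lower than untreated MT-HGF arrays for 2 genes, Prl7b1 and Prl2c5 (17.5% of all genes), all lower than RAS arrays for 4 (23.9%), and all higher than wild-type arrays for 2 (21.1%). The median difference over the 4 genes was 1.35 log2 units for RAS minus wild type, 0.94 for MT-HGF minus wild type and -0.54 for AG1478-treated minus untreated MT-HGF cells, with -0.02, -0.03 and 0.02 over all genes. These contrasts chose the genes and share groups with one another, so nothing further is read from the counts or the medians. The medians also take in Prl2c1 and Prl2a1, for which no fold is given, and Prl7b1, whose differences from wild type are bounds. In bulk RNA, a change in the share of cells that express a gene and a change in RNA per cell cannot be told apart.

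**Figure D2:**
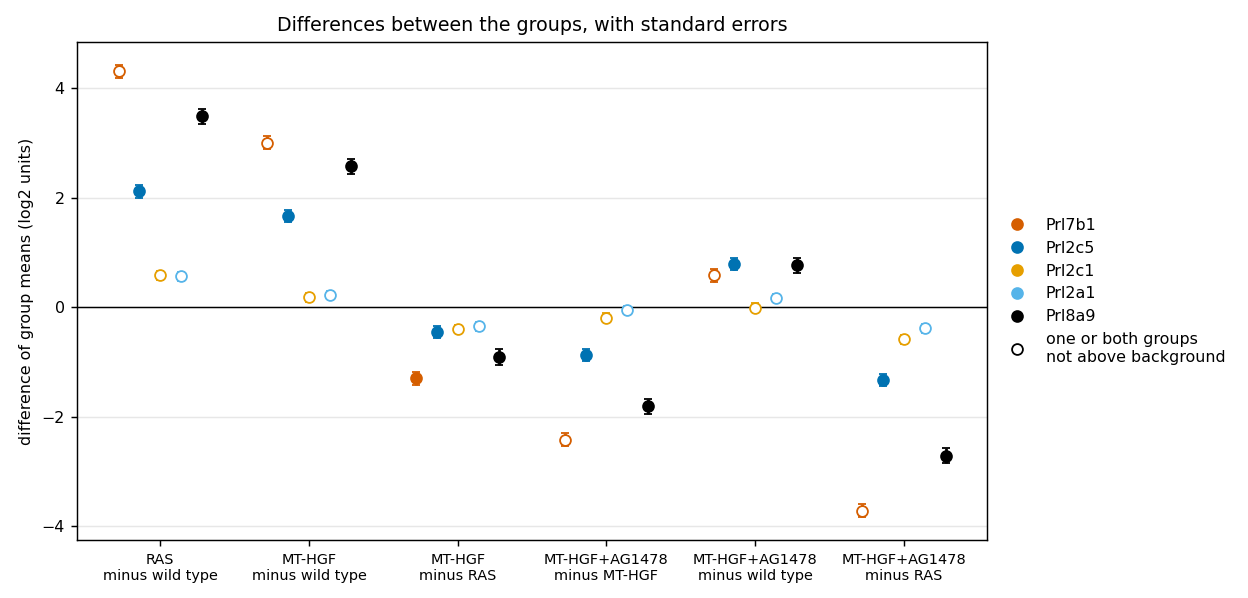
Differences of group means (log2 units, y axis) with SE for the 4 genes and Prl8a9 in the 6 comparisons (x axis); open circles mark comparisons in which at least 1 group had no array above background. Prl2c5 is 2.11 units higher in RAS and 1.67 in MT-HGF than in wild-type cells and at -0.88 units in AG1478-treated minus untreated MT-HGF cells.

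Prl8a9, the prolactin-like protein C beta gene, was the only other family gene that passed the filter, and was not among the 4 genes picked. It was at 7.94, 7.89 and 7.27 on the AG1478-treated MT-HGF arrays, 9.33, 9.47 and 9.72 on the MT-HGF arrays, 10.43, 10.28 and 10.53 on the RAS arrays, and 6.94, 7.01 and 6.86 on the wild-type arrays, of which 1 was above background. No 2 groups overlapped, and AG1478-treated replicate 3 lay below the other two arrays of its group. Prl8a9 was 11.1-fold higher in RAS than in wild-type cells (3.48 ± 0.14 log2 units, limma adjusted p = 5.44e-12) and 5.93-fold higher in MT-HGF than in wild-type cells (2.57 ± 0.14, limma adjusted p = 2.21e-10). It was 1.88-fold lower in MT-HGF than in RAS cells (-0.91 ± 0.14, limma adjusted p = 0.000156). With AG1478 it was 3.5-fold lower than in untreated MT-HGF cells (-1.81 ± 0.14, limma adjusted p = 1.54e-07), yet 1.69-fold above wild type (0.76 ± 0.14, limma adjusted p = 0.000307), and it was 6.56-fold lower than in RAS cells (-2.71 ± 0.14, limma adjusted p = 3.89e-10). Of all genes tested, 32.5% were called in either direction at an adjusted p under 0.05 for RAS against wild type, 40.9% for MT-HGF against wild type, 26% for MT-HGF against RAS, 16.5% for AG1478-treated against untreated MT-HGF cells, 42.9% for AG1478-treated cells against wild type and 36.7% for AG1478-treated cells against RAS.

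The Prl8a9 promoter is shown because it holds the letters TGACTCA, the reverse complement of TGAGTCA, which is the site that AP-1 transcription factors bind. The window stands at chr13:27564557-27564856 on the minus strand of GRCm38.p6, and capitals mark the match, which begins at base 254 of the window. A window holds 250 bases before the gene start, so the match lies just after that start.
Prl8a9: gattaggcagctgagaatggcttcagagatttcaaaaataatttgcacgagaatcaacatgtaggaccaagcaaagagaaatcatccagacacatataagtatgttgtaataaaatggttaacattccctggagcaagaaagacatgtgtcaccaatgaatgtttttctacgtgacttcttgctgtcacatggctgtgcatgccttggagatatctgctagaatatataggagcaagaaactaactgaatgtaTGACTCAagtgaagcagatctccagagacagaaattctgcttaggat
A search of both strands found TGAGTCA in 1709 of 32851 promoter windows of this length, or 5.2%. Among 22 prolactin family genes with a window it stood in 6, namely Prl3d1, Prl3d2, Prl3d3, Prl3a1, Prl8a9 and Prl7a1. Of these, Prl3d3, Prl3a1 and Prl7a1 were below background on every array, and Prl3d1 and Prl3d2 had no cluster of their own. The windows of Prl2c5 and Prl2a1 do not hold these letters, which says nothing about other sites. The window of Prl8a9 was most like those of its flanking genes Prl8a1 and Prl8a8, with 248 and 240 of 300 identical bases.

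The other family genes with a cluster of their own did not reach background. RefSeq places 26 prolactin family genes on chromosome 13, and 20 had their own cluster. Besides the 4 genes and Prl8a9, 15 were measured, and all 15 failed the filter with values between 4.59 and 5.87. They include pituitary prolactin itself (Prl), at 5.51, 5.51, 5.57 and 5.51 on average in the AG1478-treated MT-HGF, MT-HGF, RAS and wild-type cells. They also include Prl7d1, whose promoter is so like that of Prl2c5, at 5.24, 5.26, 5.26 and 5.13 in the same groups. The widest range among them was that of Prl5a1, the prolactin-like protein L gene, at 4.92, 5.16 and 5.08 on AG1478-treated MT-HGF arrays, 5.26, 5.10 and 5.19 on MT-HGF arrays, 5.71, 5.49 and 5.79 on RAS arrays and 5.04, 5.04 and 4.97 on wild-type arrays. Differences of RAS and wild-type cells over the 15 genes ranged between -0.03 (Prl7a2) and 0.65 (Prl5a1) log2 units. In a fit without the filter, 3 of the 16 other family genes (Prl5a1, Prl8a2 and Prl8a9) were called higher in RAS than in wild-type cells, when 26.1% of 19938 genes were called in either direction.

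On the chromosome the measurable genes were not all neighbours. Prl8a9 and Prl7b1 are separated by Prl8a1 alone, which had no cluster of its own, and Prl7a1 on the far side of Prl7b1 was below background. Prl2c5 lies at the other end of the family's order, beside Prl2c2 and Prl2c3, and Prl2a1 and Prl2c1 stand together between Prl7c1 and Prl4a1.

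**Figure D3:**
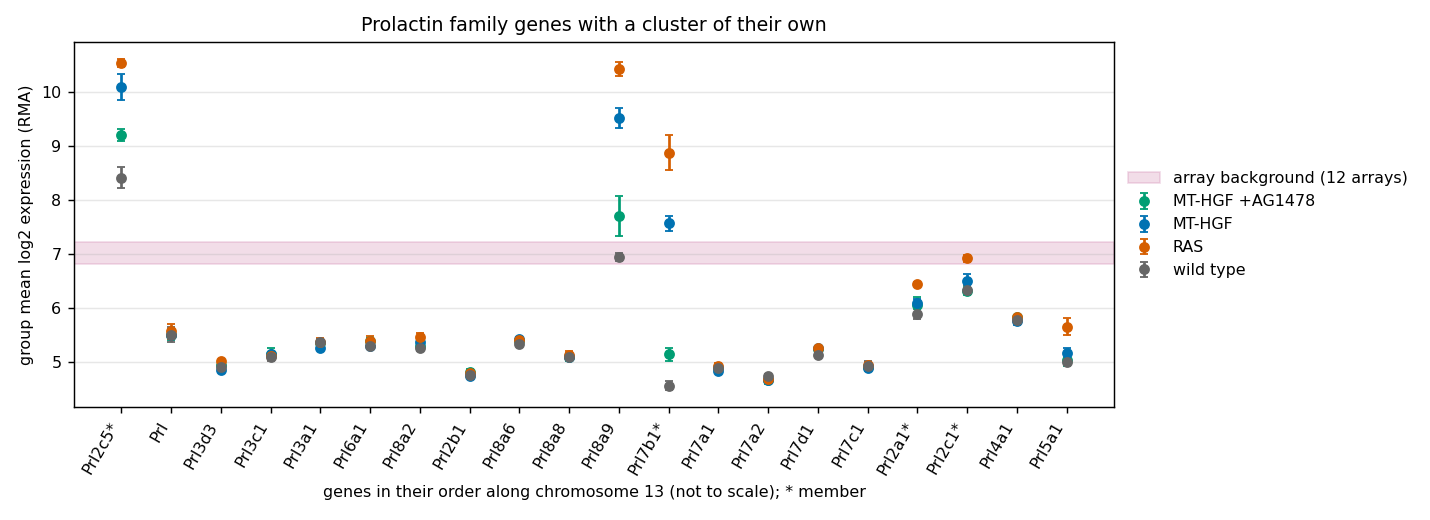
Group mean log2 expression with SD (y axis, n = 3) of the 20 prolactin family genes with their own cluster, in their order along chromosome 13 (x axis, not to scale), with the range of the array background shaded. Prl2c5 stands above the background band in all 4 groups, Prl8a9 in all but wild-type cells and Prl7b1 in RAS and MT-HGF cells, and of the other genes only Prl2c1 in RAS cells, at 6.92, reaches the band.

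The genes most like each of the 4 over the 12 arrays were found by Pearson correlation, as a description with no test, since the 12 points fall into the same 4 groups for every gene. Those nearest to Prl7b1 were Dhx34, an RNA helicase (r = 0.992), Ddhd1, a phospholipase (r = 0.991), and Fabp4, a fatty acid binding protein (r = 0.99). Fabp4 averaged 6.60, 7.79, 8.38 and 5.99 in the AG1478-treated MT-HGF, MT-HGF, RAS and wild-type cells, and so lay below background, on average, in the AG1478-treated and wild-type cells, as Prl7b1 did. Nearest to Prl2c5 were Zdhhc13, a palmitoyltransferase (r = 0.988), Wee1, a kinase that holds back entry into mitosis (r = 0.987), and Sema7a, a membrane-bound semaphorin (r = 0.987). Sema7a averaged 8.22, 9.44, 10.07 and 7.05 in those groups. Prl2c1 was nearest to Bag4, a co-chaperone (r = 0.974), Lce1g, a late cornified envelope gene (r = 0.963), and Hk2, a hexokinase (r = 0.959). Prl2a1 was nearest to Sema6a, a semaphorin (r = 0.958), Egr1, an immediate early transcription factor (r = 0.957), and Rspo4, an R-spondin (r = 0.956). Egr1 averaged 8.71, 8.95, 9.48 and 8.55, the highest in RAS cells as Prl2a1 was. Prl2a1 was above background on no array and Prl2c1 on 1 RAS array alone. The correlations of other genes with Prl2a1 and Prl2c1 therefore rest on values at or below background.

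Among the family genes themselves, Prl7b1 and Prl8a9 had r = 0.986 over the 12 arrays, Prl2c5 and Prl8a9 0.975, and Prl7b1 and Prl2c5 0.955. Once each array's group mean was taken away these values were 0.151, 0.451 and 0.059. Over all 10 pairs of the 4 genes and Prl8a9, r lay between 0.781 and 0.986 across the arrays, and between -0.712 (Prl2a1 and Prl8a9) and 0.661 (Prl2c1 and Prl8a9) once group means were taken away. The pairs with Prl2a1 or Prl2c1 likewise rest on values of these genes near or below background.

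**Figure D4:**
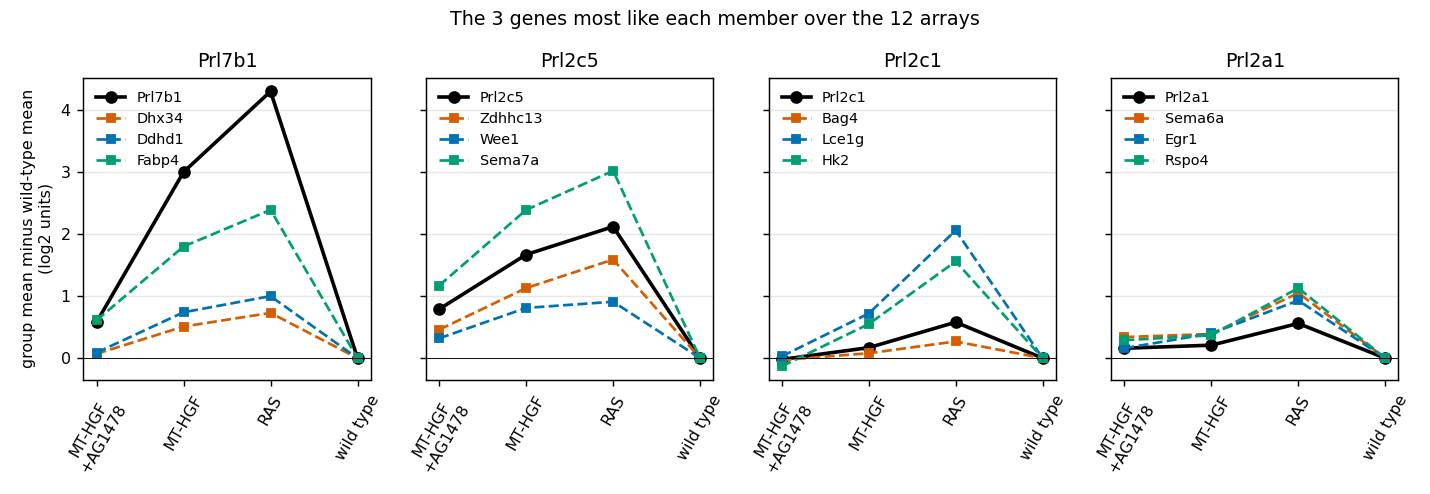
Group mean minus wild-type mean (log2 units, y axis) for each of the 4 genes (black) and the 3 genes with the highest Pearson correlation with it over the 12 arrays (dashed), by group (x axis). All lines peak in RAS cells, at 4.30 units for Prl7b1 and 2.11 for Prl2c5.

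Of the genes around the prolactin receptor, 19 of 20 listed were tested, and the receptor gene Prlr was not analysed here because it had no cluster of its own. In RAS against wild-type cells 7 were called higher and 3 lower, in MT-HGF against wild-type cells 6 and 5, and in AG1478-treated against untreated MT-HGF cells 3 and 3. The medians of the list were 0.11, -0.08 and -0.01 log2 units, against -0.02, -0.03 and 0.02 over all genes. Of all genes tested, 12.6% were called higher and 19.9% lower in the first comparison, 17.1% and 23.9% in the second and 6.57% and 9.91% in the third. Pim1, a kinase and a known STAT5 target, was among the largest changes, at 10.86 ± 0.11 in AG1478-treated MT-HGF, 11.01 ± 0.080 in MT-HGF, 11.10 ± 0.15 in RAS and 9.36 ± 0.17 in wild-type cells. It rose by 1.74 log2 units in RAS cells (limma adjusted p = 2.7e-10) and by 1.65 in MT-HGF cells (limma adjusted p = 4.08e-10) over wild type, and with AG1478 it was -0.15 from untreated MT-HGF cells (limma adjusted p = 0.33). The difference with AG1478 was -0.88 for Prl2c5 and -1.81 for Prl8a9, and for Prl7b1 it is known only as the bound of -0.43, and the difference between genes was not tested. Socs3, a feedback inhibitor of cytokine signalling, was 0.38 higher in RAS and 0.75 higher in MT-HGF than in wild-type cells (limma adjusted p = 0.000286 and 1.02e-07) and 0.18 with AG1478 over untreated MT-HGF cells (0.0743). Cish, another such inhibitor, did not pass the test in these comparisons (0.16, 0.03 and 0.17, limma adjusted p = 0.174, 0.807 and 0.172). Socs2 was called lower with AG1478 than in untreated MT-HGF cells (limma adjusted p = 7.11e-05), at least 1.03-fold, since the treated cells were below background. Stat3 and the growth hormone receptor gene Ghr rose with AG1478 over untreated MT-HGF cells, by 0.50 and 0.48 log2 units (limma adjusted p = 1.27e-05 and 5.51e-05). Stat5a fell by 0.26 in RAS and by 0.33 in MT-HGF cells against wild type and was 0.32 higher with AG1478 than without (limma adjusted p = 0.00855, 0.00106 and 0.00359), and Jak2 did not pass in these comparisons (-0.19, -0.19 and -0.17). Igf2r, the mannose 6-phosphate receptor that binds proliferin in the mouse, rose by 1.06 log2 units in MT-HGF cells over wild type (limma adjusted p = 1.12e-09) and by 0.46 in RAS cells (4.52e-05 by the same test), and fell by 0.35 with AG1478 (0.00142). Igf1 fell by 1.68 in RAS and by 0.79 in MT-HGF cells against wild type (limma adjusted p = 1.17e-09 and 8.44e-06) and differed by 0.01 with AG1478 (0.949).

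AP-1 factors are the Fos, Jun and related proteins and are known to act on the proliferin promoter. Whether they bind the letters printed in the Prl8a9 window was not tested. Their genes were taken as a list of 13. In RAS against wild-type cells 6 were called higher and 0 lower (12.6% and 19.9% of all genes), and in MT-HGF against wild-type cells 7 and 1 (17.1% and 23.9%). In AG1478-treated against untreated MT-HGF cells 3 were called higher and 4 lower (6.57% and 9.91% of all genes), with a list median of -0.08. In AG1478-treated MT-HGF against wild-type cells 6 were called higher and 1 lower (16.8% and 26.2%). In MT-HGF against RAS cells 3 were called higher and 1 lower, when 26% of all genes were called in either direction. Fos and Atf3 were among those 3, at 0.35 and 0.38 (limma adjusted p = 0.00162 and 0.00174). Fos averaged 7.65 ± 0.034 in AG1478-treated MT-HGF, 8.69 ± 0.033 in MT-HGF, 8.34 ± 0.14 in RAS and 7.02 ± 0.024 in wild-type cells. It rose by 1.67 in MT-HGF and by 1.32 in RAS cells over wild type (limma adjusted p = 9e-12 and 2.01e-10) and fell by 1.04 with AG1478 (limma adjusted p = 3.57e-08). The part of AP-1 factors in the levels of the prolactin family genes was not tested. Maff, a small Maf protein, was at least 1.68-fold higher in RAS and at least 1.54-fold higher in MT-HGF than in wild-type cells, where it was below background (limma adjusted p = 4.08e-06 and 1.31e-05), and was -0.29 with AG1478 (0.101). Jdp2, a repressor of AP-1 targets, rose by 0.37 in MT-HGF cells over wild type and fell by 0.56 with AG1478 (limma adjusted p = 0.00125 and 0.000118), and was -0.12 in RAS cells (0.32). Fosl1 rose by 0.79 in RAS and by 0.69 in MT-HGF cells (limma adjusted p = 4.5e-06 and 1.38e-05) and fell by 0.60 with AG1478 (limma adjusted p = 0.000257). Atf3 rose by 0.62 in RAS and by 1.00 in MT-HGF cells (limma adjusted p = 9.72e-06 and 2.06e-08) and fell by 0.38 with AG1478 (limma adjusted p = 0.00283). Junb rose by 0.59 and 0.42 (limma adjusted p = 1.94e-05 and 0.000408) but was -0.05 with AG1478 (0.733), and Jun fell by 0.42 in MT-HGF cells and rose by 0.39 with AG1478 (limma adjusted p = 0.000722 and 0.00429).

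Most trophoblast markers failed the filter or lay below background in all groups. Of 33 trophoblast and placenta markers with their own cluster, 16 failed the filter, among them Tpbpa, Plac1, Ctsq, Eomes and Esrrb. Of the 17 tested, 4 were called higher and 1 lower in RAS than in wild-type cells, against 12.6% and 19.9% of all genes. In MT-HGF against wild-type cells 3 and 1 were called (17.1% and 23.9% of all genes). In AG1478-treated MT-HGF against wild-type cells 4 and 1 of the 17 were called (16.8% and 26.2% of all genes). Their mean level lay between 7.46 and 7.62 on AG1478-treated MT-HGF, 7.49 and 7.50 on MT-HGF, 7.47 and 7.56 on RAS, and 7.37 and 7.49 on wild-type arrays. Cdx2, Hand1, Ascl2, Gata2, Syna and Synb were above background on 0 arrays. Elf5 was called higher than wild type in RAS and MT-HGF cells (0.68 and 0.84 log2 units, limma adjusted p = 1.85e-05 and 1.08e-06). It was called lower with AG1478 than in untreated MT-HGF cells (-0.39, limma adjusted p = 0.00639). Only 1 MT-HGF array of Elf5 was above background, so no fold is given. Other markers were above background on every array, among them Plet1 and Rhox6. The markers that were called and above background include genes that keratinocytes also express, such as Tfap2c, a transcription factor, which was 0.42 higher in RAS and 0.38 higher in MT-HGF than in wild-type cells.

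Some markers of other cell types in the cultures also differed between groups, in some comparisons and not in others. Their part in these results was not tested. The mean level of 15 fibroblast markers lay between 8.56 and 8.61 on AG1478-treated MT-HGF, 8.52 and 8.61 on MT-HGF, 8.25 and 8.28 on RAS, and 8.79 and 8.82 on wild-type arrays. Against wild type, 10 were called lower and 1 higher in RAS cells, where 19.9% and 12.6% of all genes were. In MT-HGF cells 10 were called lower and 4 higher (23.9% and 17.1% of all genes). With AG1478, 1 was called higher and 1 lower than in untreated MT-HGF cells (6.57% and 9.91%). The list held opposite moves. Col1a1 was -1.37 in RAS and -0.72 in MT-HGF cells against wild type. Twist2 was 0.62 and 0.86 higher, and Dcn was 1.77 higher in MT-HGF cells. The 10 melanocyte markers averaged between 9.24 and 9.33 on AG1478-treated MT-HGF, 9.22 and 9.41 on MT-HGF, 9.65 and 9.81 on RAS, and 9.50 and 9.72 on wild-type arrays. Of these, 7 were called lower in MT-HGF than in wild-type cells, where 23.9% of all genes were. In RAS against wild-type cells 0 were called higher and 0 lower (12.6% and 19.9% of all genes). With AG1478 against untreated MT-HGF cells the counts were also 0 and 0 (6.57% and 9.91%). The 9 leukocyte markers averaged between 6.63 and 6.81, 6.64 and 6.72, 6.73 and 6.83, and 6.85 and 6.98 in the AG1478-treated MT-HGF, MT-HGF, RAS and wild-type cells, and endothelial markers between 6.65 and 6.80, 6.73 and 6.77, 6.67 and 6.83, and 6.81 and 6.90. Against wild type, 2 leukocyte markers were called higher and 3 lower in RAS cells, and 2 and 4 in MT-HGF cells. Of 8 endothelial markers 1 and 2 were called in RAS cells, and 2 and 2 in MT-HGF cells. With AG1478 against untreated MT-HGF cells the counts were 1 and 0 for leukocyte and 0 and 1 for endothelial markers. The shares over all genes are those given above. The leukocyte mean holds opposite moves. Cd68, a lysosomal protein of macrophages and other cells, averaged 10.08, 10.24, 10.25 and 8.96 in the same order and was called higher in RAS and in MT-HGF than in wild-type cells (1.29 and 1.28, limma adjusted p = 1.22e-07 and 9.26e-08). Lyz2, a macrophage and granulocyte lysozyme, was above background in wild-type cells alone, and at least 1.62-fold lower in RAS and 1.67-fold lower in MT-HGF cells (limma adjusted p = 2.77e-06 and 2.26e-07). The 14 keratinocyte markers averaged between 11.69 and 11.78 on AG1478-treated MT-HGF, 11.09 and 11.14 on MT-HGF, 11.36 and 11.50 on RAS and 11.63 and 11.66 on wild-type arrays. The widest moves among them were those of Krt1 and Krt10, keratins of differentiating suprabasal keratinocytes. Krt1 averaged 12.84, 8.07, 10.68 and 12.02 in the AG1478-treated MT-HGF, MT-HGF, RAS and wild-type cells, and Krt10 averaged 10.23, 7.32, 8.99 and 10.63. Both were called lower in MT-HGF and in RAS cells than in wild-type cells and higher with AG1478 than without (limma adjusted p up to 4.08e-07). Basal Krt5 and Krt14 did not pass the test in any comparison (lowest limma adjusted p = 0.24 and 0.0956).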

How the data were processed

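Total RNA of 12 keratinocyte samples was measured on 1 array each. The values are log2 expression per transcript cluster, which the authors made with RMA, per the submitters' processing notes. RMA subtracts background, forces all arrays to 1 distribution and summarises the probes of a cluster, and its version was in no source used here. The values were used as deposited. Groups came from the sample titles. The labels give 4 groups while the series' design text counts 3, and the labels were followed. The 4 genes and all gene lists were chosen with earlier results of these data known.

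Of 35511 clusters, 21789 had a single symbol in the platform annotation, 1621 several, and 12101 were not listed there. The filter kept the 25860 clusters that exceeded the 30th percentile of the array on 3 or more of the 12 arrays. For 815 genes with several such clusters the one with the highest mean was used, which left 15868 genes.

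All 12 arrays entered 1 model of group means in limma 3.58.1 (R 4.3.3; files were read by the data.table package in version 1.17.8). It had 8 residual and 8.02 prior degrees of freedom. P-values are two-sided, with Benjamini-Hochberg adjustment over all genes of a comparison, and genes were called at an adjusted p under 0.05. The fit was tested on simulated data. The SE is that of the moderated fit.

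A gene at or below the background on all 3 arrays of the lower group has its difference given as a bound, the higher group's mean against the mean of that group's 3 background values (162 chemosensory genes that passed the filter). Where neither group had an array above it, no fold is given. The 4 genes were all named. Of the other prolactin family genes, those above background on every array of a group or called were named. Of each further list up to 4 called genes by size of difference in a comparison could be named, and not all of these are printed. Prl, Prl7d1, further genes of the AP-1, receptor, trophoblast and fibroblast lists (such as Jun, Cish, Jak2 and Twist2), and Krt5 and Krt14 were chosen after their values were seen. For each of the 4 genes the 3 most correlated genes are named.

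Promoter windows were matched by symbol, taking the first listed for a gene, and compared by global alignment with Biopython 1.88. No source used here names the array's genome build, so gene coordinates are not printed and the gene order is that of GRCm38.p6. The number of arrays limits the precision. Alternatives were no filter, arrays centred on their median, array weights, 2 groups only, an intensity trend, the mean of a gene's clusters, a replicate block, a background from all chemosensory clusters, and leaving out each array.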

Additional observations from a re-analysis of the deposited data

How the results depend on the processing

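With an array left out, the number of genes called ranged between 4119 and 5627 for RAS against wild type (5158 with all arrays), 5526 and 6914 for MT-HGF against wild type (6496), 2961 and 4620 for MT-HGF against RAS (4131), 1792 and 2795 for AG1478-treated against untreated MT-HGF (2615), 5828 and 6941 for AG1478-treated cells against wild type (6814) and 4844 and 6056 for AG1478-treated cells against RAS (5827). Prl7b1 then ranged between 4.18 and 4.48 for RAS minus wild type and between -2.49 and -2.34 for AG1478-treated minus untreated MT-HGF cells, and Prl2c5 between 2.05 and 2.23 and between -1.02 and -0.81. Differences that crossed 0 were those of Prl2a1 for AG1478-treated minus untreated MT-HGF cells (-0.13 to 0.01) and of Prl2c1 for AG1478-treated minus wild-type cells (-0.06 to 0.03), both at background. With array weights, whose estimation stopped before its tolerance was met, 8096 genes were called for RAS against wild type and 3925 for AG1478-treated against untreated MT-HGF cells; the cause was not tested. With all chemosensory clusters the mean background was 6.24, and the bounds of Prl7b1 were 2.63 (RAS minus wild type), 1.33 (MT-HGF minus wild type), -1.29 (AG1478-treated minus untreated MT-HGF) and -2.59 (AG1478-treated minus RAS) log2 units, since the bound is measured against it. Without the filter, 2 of the 16 other family genes were called lower in MT-HGF than in RAS cells and 2 in AG1478-treated MT-HGF than in RAS cells. In both comparisons 0 were called higher. Of all 19938 genes, 20.6% and 29.2% were called in either direction in these comparisons. Among named genes, Pim1 for MT-HGF minus RAS was 0.02 with array weights (-0.09 otherwise) and Fosl1 for AG1478-treated MT-HGF minus wild type was 0 without AG1478-treated replicate 3 (0.10 otherwise, and up to 0.18 without another array), and neither passed the test. Prl8a9 was called in all 6 comparisons under every alternative run, with adjusted p up to 0.00253. Replicate numbers were not taken to pair the arrays, because 7 of 18 same-numbered pairs correlated over 0.1 (range -0.44 to 0.528). Among the wild-type, RAS and MT-HGF arrays 6 of 9 did, those of replicates 1 and 3, while the 3 pairs of replicate 2 did not, and among pairs with an AG1478-treated array 1 of 9 did. With a replicate block 5262, 6558, 4254, 2708, 6959 and 5931 genes were called in the order of comparisons above. Every group holds the same replicate numbers, so such a block cannot change the differences of the 4 genes.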
